A study of Mus musculus with 4 samples.

Results

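The genes described here are 8 signalling genes of the bone morphogenetic protein (BMP), hedgehog and Wnt pathways, namely Bmp2, Gdf5, Gdf10, Bmpr1b, Gas1, Gli3, Wnt7b and Dkk2, read in fetal mouse testis. They were taken by name from 6 deposited tables of called transcripts, where they make up 8 of 235 named genes and 9 of 382 transcripts, Gli3 having 2 rows. They were chosen because those tables list them, so the levels and fold changes below describe these genes and are not tests of them. Every group was wild type, of the CD1 strain and at developmental stage E13.5, and its RNA came from gonads, labelled testis, dissected free of the mesonephros. The Control library has a treatment labelled as none and carries the name EtOH inside the tables. ACE+ACE is labelled acetaminophen, ASP+ACE aspirin with acetaminophen, and IBU+ACE ibuprofen with acetaminophen; the study looked at what exposure in the womb to these painkillers does to the forming testis. There was 1 library in each of the 4 groups, so no value has a replicate error and every difference is between 2 libraries. The sources used here give no dose, no days of exposure and no number of embryos per library.

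BMPs and growth differentiation factors (GDFs) are secreted ligands that bind pairs of type I and type II receptor kinases, which pass the signal on through SMAD proteins; they drive cartilage and joint formation in the limb, and Bmp2 is better known from the fetal ovary than from the testis. Hedgehog ligands act through Patched and Smoothened on the GLI transcription factors; in the fetal testis Sertoli cells release desert hedgehog, which acts on the precursors of Leydig cells. Wnt ligands signal through Frizzled and LRP receptors, in part by way of beta-catenin, a route that promotes ovarian fate and is kept low in the testis.

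Promoter sequences are shown because these genes stood high together in the IBU+ACE library. RefSeq windows on GRCm38.p6 were found for 5 of the 8 genes (Dkk2, Bmpr1b, Gas1, Gdf10 and Gli3). The 250 bases before an annotated start are printed for 4 of them, 5′ to 3′ on the strand of the gene. Bmpr1b has 3 such windows, of which only the 1 with a match is shown. Capitals mark a match to the letters of a TATA box (TATAAA), wherever they stand, or to a sequence bound by BMP SMADs (GGCGCC).
Dkk2, chr3:132085042-132085291, plus strand: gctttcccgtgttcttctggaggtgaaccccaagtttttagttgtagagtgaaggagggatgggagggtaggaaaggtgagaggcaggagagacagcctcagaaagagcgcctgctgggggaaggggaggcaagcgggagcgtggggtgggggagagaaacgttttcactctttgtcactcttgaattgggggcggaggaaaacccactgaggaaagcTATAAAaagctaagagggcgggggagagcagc
Gas1, chr13:60177536-60177785, minus strand: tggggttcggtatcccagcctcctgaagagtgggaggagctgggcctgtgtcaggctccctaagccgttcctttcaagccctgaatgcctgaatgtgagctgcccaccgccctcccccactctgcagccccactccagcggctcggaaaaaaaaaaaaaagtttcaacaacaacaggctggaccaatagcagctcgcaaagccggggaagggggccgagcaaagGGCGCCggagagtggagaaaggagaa
Gdf10, chr14:33923337-33923586, plus strand: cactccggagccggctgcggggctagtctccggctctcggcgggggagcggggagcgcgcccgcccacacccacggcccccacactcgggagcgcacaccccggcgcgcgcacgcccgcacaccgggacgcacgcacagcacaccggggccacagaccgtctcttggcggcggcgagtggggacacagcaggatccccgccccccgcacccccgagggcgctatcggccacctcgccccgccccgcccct
Bmpr1b, chr3:141982265-141982514, minus strand: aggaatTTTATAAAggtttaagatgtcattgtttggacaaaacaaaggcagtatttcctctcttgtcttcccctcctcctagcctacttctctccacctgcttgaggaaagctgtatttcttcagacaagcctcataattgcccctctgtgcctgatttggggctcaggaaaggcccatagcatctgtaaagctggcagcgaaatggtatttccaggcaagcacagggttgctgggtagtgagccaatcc
Dkk2 had a TATAAA that began 32 bases before its start, and Gas1 had a GGCGCC that began 26 bases before its start. In the Bmpr1b window TATAAA and its reverse complement TTTATA overlapped, beginning 242 and 244 bases before the start. That window lies inside the deposited Bmpr1b locus (141835674 to 142169559), so its start is not the outer end of the locus. The Dkk2 and Gas1 windows also reach into the deposited loci, which begin at 132085247 for Dkk2 and end at 60177732 for Gas1. Their matches lie inside those loci and so not upstream of the deposited rows. The Gdf10 window held no match, nor did the Gli3 window or the other Bmpr1b windows, which are not shown. The Gas1 window overlaps an exon of the non-coding RNA gene Gm48488 on the other strand. Matches to the hedgehog effector site TGGGTGGTC and the Wnt effector site ATCAAAG were also looked for and were in none of the member windows. On both strands, 12.4% of 32851 RefSeq windows of this length held TATAAA, 9.59% held GGCGCC, 3.21% held ATCAAAG and 0.225% held TGGGTGGTC. A match describes letters only, and no match says nothing of whether a factor binds. The windows shown differed in base composition, with a GC content of 55.6% for Dkk2, 58.8% for Gas1, 78.8% for Gdf10 and 46.8% for Bmpr1b, against a median of 52.4% over all windows.

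The level of a row is the value the authors deposited, taken to be in FPKM (fragments scaled to transcript length and library size). Levels of different rows can therefore be compared per length. Each row is 1 transcript, and a gene's level below is that of its listed transcript. Other transcripts of the same gene may have had no call, so the level of the whole gene is not known. A gene is said to have risen only where a deposited table lists it; all rows carry p = 5e-05 and q = 0.0310 in the authors' deposited tables, so these cannot rank genes. A gene absent from a table had no call there, which does not show equal levels. Of 36 possible values of the 9 member rows, 33 could be read, since a library's value is known once any table lists the row. Several other groups of genes moved with the IBU+ACE library, and their part in the results was not tested. For every marker count against Control, the share over 21924 annotated protein-coding genes, tested or not, was 0.379% listed as higher and 0.0593% as lower. Cartilage and joint markers rose for 8 of 21 genes against Control. The 6 cartilage and joint markers with values in all libraries summed to 12.9 to 17.2 FPKM in the other 3 libraries and to 72.3 FPKM in IBU+ACE. Limb and genital tubercle markers rose for 7 of 30 genes, and the 4 with all values summed to 1.08 to 1.23 FPKM against 25.1 FPKM; of this list, Evx2 was listed at 0 in ASP+ACE. Epidermal markers rose for 4 of 22 genes, and 4 with all values summed to 3.43 to 4.65 FPKM against 19.0 FPKM. Gdf5 is 1 of the 6 cartilage genes summed, and Wnt7b belongs to the epidermal list. Msx1, which is also on the list of BMP targets, is 1 of the 4 limb and genital tubercle genes summed. Every gene in these cartilage, limb and genital tubercle and epidermal sums was listed as higher in IBU+ACE. A higher sum in that library thus came with the choice of genes, and nothing is read from it. Col2a1 alone held 36.3 FPKM of the cartilage sum in IBU+ACE. Xist, the RNA of the inactive X chromosome in female cells, was at 0.954, 0.710 and 0.668 FPKM in Control, ACE+ACE and ASP+ACE and at 11.1 FPKM in IBU+ACE, at a locus that overlaps its antisense partner Tsix. Of 16 Sertoli markers 2 rose against Control, Sox9 and Cst9. Cst9 read 63.3 FPKM with Control and 114 with IBU+ACE and could not be read in the other libraries. Sox9, which cartilage also expresses, had 5.22 to 5.98 FPKM in the other 3 libraries and 10.04 FPKM in IBU+ACE, the germ cell gene Lefty1 had 4.53 to 11.04 FPKM over the 4 libraries, and 0 of 10 Leydig markers were in any table. Of 12 germ cell markers 2 rose and 2 fell in IBU+ACE against Control, and 0 of 11 mesonephros and duct markers were in any table. Of 14 liver markers 0 rose or fell in IBU+ACE against Control, but 7 rose against ACE+ACE and 3 against ASP+ACE. The shares of protein-coding genes listed as higher against ACE+ACE and ASP+ACE were 0.575% and 0.465%. In whole gonads, more cells of a type and more RNA per cell cannot be told apart.

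All 8 genes rose in the IBU+ACE library in at least 1 table, and none fell in any. Against Control, 7 rows of 7 genes rose, where 0.201% of the transcripts tested were listed as higher. Gli3 is among these 7 genes only through the row with its lower values, and which gene that row counts is uncertain. Against ACE+ACE 8 rows of 7 genes rose (0.276% of transcripts), and against ASP+ACE 9 rows of all 8 genes (0.213% of transcripts). These percentages rest on 74945 tests per table, the number implied by the shared q-value if the rows are every call of 1 Benjamini-Hochberg adjustment. The median log2 fold change of the member rows in the authors' deposited tables was 1.09 over Control, 1.31 over ACE+ACE and 1.40 over ASP+ACE. Over all listed rows that were higher in IBU+ACE and had a finite value it was 1.71, 1.82 and 1.80. With the lower rows included it was 1.40, 1.70 and 1.75. Because the genes were picked from these tables, nothing is read from these counts and medians. The 3 comparisons share the IBU+ACE library. No member was in the tables of Control with ACE+ACE, Control with ASP+ACE or ACE+ACE with ASP+ACE, where 0.0894%, 0.0587% and 0.032% of transcripts were listed in either direction.

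**Figure D1:**
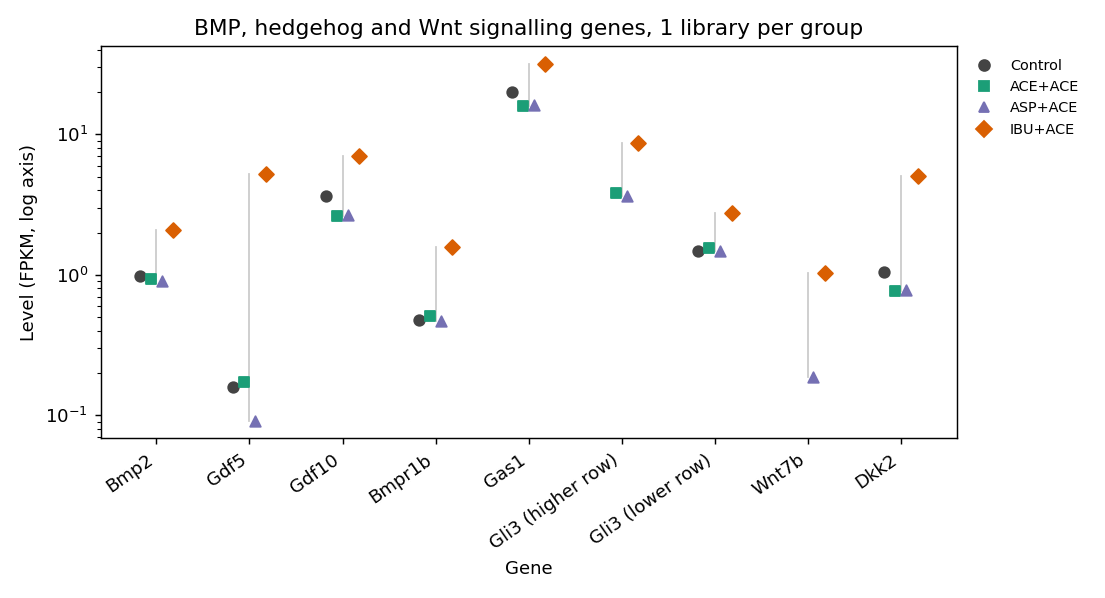
Level of each listed transcript in FPKM (log axis) in the 4 libraries, 1 point per library with a value. A grey line runs from the lowest to the highest value, and Gli3 has 2 deposited rows. In every row the IBU+ACE point lies above the other libraries that have a value, from Wnt7b at 1.03 FPKM to Gas1 at 31.9 FPKM.

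Among the ligands, Gdf5 had the widest difference. Gdf5 is a growth factor of joints and early cartilage (GRCm38, as for all loci here, chromosome 2, 155940728 to 155945423, minus strand; the locus also covers Gm15557 on the other strand). ASP+ACE held 0.0916 FPKM of it, Control 0.159, ACE+ACE 0.174 and IBU+ACE 5.25. The 3 low libraries lie together close to the bottom of the scale, and IBU+ACE stands far above them. The log2 fold changes in the authors' deposited tables were 5.04 over Control, 4.92 over ACE+ACE and 5.84 over ASP+ACE. Among rows that were higher in IBU+ACE and had a finite fold change, Gdf5 held rank 3 of 127 against Control, rank 2 of 180 against ACE+ACE and rank 2 of 146 against ASP+ACE. The size of this fold rests on the low values: with 1 FPKM added to both libraries the log2 fold change over Control was 2.43.

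Bmp2, a ligand that induces bone and cartilage, lies on the same chromosome (133552159 to 133564322, plus strand). IBU+ACE reached 2.09 FPKM, while Control stood at 0.979, ACE+ACE at 0.937 and ASP+ACE at 0.897. The first 3 values span a ratio of 1.09, while IBU+ACE was 2.13 times the highest of them. Its log2 fold changes in the authors' deposited tables were 1.09, 1.16 and 1.22 over Control, ACE+ACE and ASP+ACE. Bmp2 was also 1 of the 2 genes of the 10-gene ovarian list that rose against Control, beside Irx5. Of all annotated protein-coding genes, 0.379% were listed as higher against Control. Bmp2 was itself picked from these tables, and Irx5 also belongs to the limb and genital tubercle list, so nothing is read from this count. The remaining genes of the ovarian list were in no table.

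Gdf10, also called Bmp3b, is a divergent member of the BMP family (chromosome 14, 33923587 to 33936329, plus strand). Its 4 readings were 7.01 FPKM with IBU+ACE, 3.67 with Control, 2.61 with ACE+ACE and 2.65 with ASP+ACE. Here the other libraries were not level with each other, since Control stood above ACE+ACE and ASP+ACE, a difference that no table lists. The log2 fold change of IBU+ACE was smaller over Control, at 0.93, than over ACE+ACE (1.43) or ASP+ACE (1.40) in the authors' deposited tables.

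The receptor gene was Bmpr1b, which encodes a type I BMP receptor kinase through which GDF5 acts in developing cartilage (chromosome 3, 141835674 to 142169559, minus strand). ASP+ACE, Control and ACE+ACE had 0.470, 0.478 and 0.506 FPKM, and IBU+ACE had 1.58 FPKM. The 3 other libraries were within a ratio of 1.08 of each other, and IBU+ACE was 3.11 times the highest of them. Log2 fold changes in the authors' deposited tables were 1.72, 1.64 and 1.74 over Control, ACE+ACE and ASP+ACE. Bmpr1b was the only 1 of 18 receptor genes of the BMP and TGF-beta list in any table. The other type I receptor genes Bmpr1a and Acvr1 and the type II receptor gene Bmpr2 were in none.

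Gas1 encodes a cell surface protein that binds hedgehog ligands and helps present them to Patched (chromosome 13, 60171905 to 60177732, minus strand; the locus also touches the non-coding gene Gm48488 on the other strand). It had the highest readable level of the 8 genes in each library, with Control at 20.03 FPKM, ACE+ACE at 15.9, ASP+ACE at 16.2 and IBU+ACE at 31.9. IBU+ACE lay 11.8 FPKM above Control, the largest gain in FPKM among the 9 rows, yet the fold was the smallest of the 7 rows listed against Control. The log2 fold changes in the authors' deposited tables were 0.67 over Control, 1.005 over ACE+ACE and 0.98 over ASP+ACE, and Gas1 held rank 123 of 127 against Control.

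Gli3 encodes a GLI factor that acts mainly as a repressor of hedgehog targets when no ligand is present, and it patterns the digits. Its 2 deposited rows share 1 locus (chromosome 13, 15440302 to 15730026). That locus holds Gli3 on the plus strand (15463235 to 15730026), the pseudogene Gm48343, and the non-coding genes Gm6556 and Gm26645 on the minus strand; the tables do not give the strand of a row, so which gene the lower row counts is uncertain. The row with the higher values read 8.69 FPKM for IBU+ACE, 3.82 for ACE+ACE and 3.66 for ASP+ACE, with no readable Control value. The row with the lower values had 1.48 FPKM with Control, 1.49 with ASP+ACE, 1.54 with ACE+ACE and 2.76 with IBU+ACE. Both rows were nearly level across the other libraries, with ratios of highest to lowest of 1.04 in each, and higher in IBU+ACE. The first had log2 fold changes of 1.19 over ACE+ACE and 1.25 over ASP+ACE in the authors' deposited tables and was not listed against Control; the second had 0.90 over Control, 0.84 over ACE+ACE and 0.89 over ASP+ACE.

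Wnt7b, a Wnt ligand made by epithelia that include the surface ectoderm (chromosome 15, 85535439 to 85593708, minus strand), could be read in 2 libraries. ASP+ACE held 0.187 FPKM and IBU+ACE 1.03 FPKM, and the authors' deposited table gives a log2 fold change of 2.46. The lower value is small, and adding 1 FPKM to both brought the log2 fold change to 0.78. The deposited locus reaches into AU022754, an antisense gene on the plus strand. The libraries were stranded, but the processing settings are not given, so whether reads of the pair were separated is not known. Wnt7b was the only 1 of 19 Wnt ligand genes in any table, and Wnt4, the ligand best known for ovarian fate, was in none.

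Dkk2 encodes a secreted protein that binds the Wnt coreceptors LRP5 and LRP6 and can block Wnt signalling (chromosome 3, 132085247 to 132180304, plus strand). ACE+ACE had 0.765 FPKM, ASP+ACE 0.775, Control 1.05 and IBU+ACE 5.02. As for Gdf10 and Gas1, Control lay above the ACE+ACE and ASP+ACE libraries without a call, and IBU+ACE lay above all. The log2 fold changes of 2.26 over Control, 2.72 over ACE+ACE and 2.70 over ASP+ACE in the authors' deposited tables were the highest after Gdf5 among the 8 genes in each table, and held rank 30 of 127, 34 of 180 and 25 of 146 among all higher rows with a finite fold change.

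**Figure D2:**
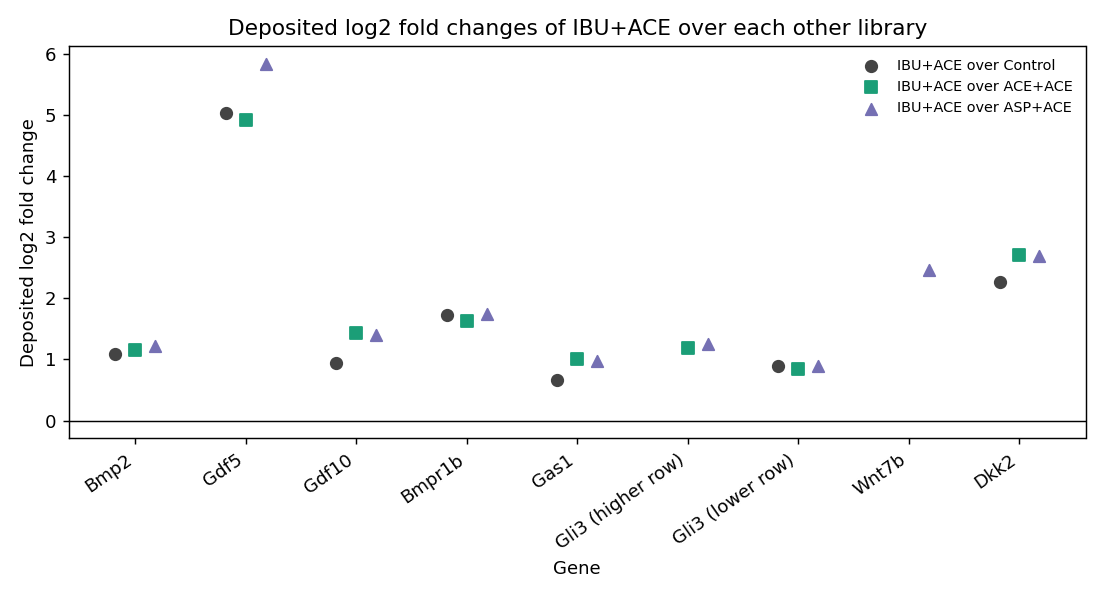
Deposited log2 fold change of IBU+ACE over Control, ACE+ACE and ASP+ACE for each row (1 point per table that lists it; the line at 0 marks equal levels). All 24 points lie above 0, from 0.67 for Gas1 over Control to 5.84 for Gdf5 over ASP+ACE.

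The order of the levels differed between libraries. In IBU+ACE it ran from Gas1 (31.9 FPKM) through Gli3 in its higher row (8.69), Gdf10 (7.01), Gdf5 (5.25), Dkk2 (5.02), Gli3 in its lower row (2.76), Bmp2 (2.09) and Bmpr1b (1.58) to Wnt7b (1.03). Gdf5 and Dkk2 were neighbours in that order with nearly the same level, and with 1 library no neighbours can be said to differ beyond their spread. Among the 7 rows with a Control value Gdf5 had the lowest there, at 0.159 FPKM, below Bmpr1b at 0.478 FPKM. In IBU+ACE Gdf5 stood above 4 of the other 6 rows and Dkk2 above the lower Gli3 row, which it was below in Control; the remaining rows kept 1 order.

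The 7 rows with values in all 4 libraries also show how far the other 3 libraries differed among themselves. The ratio of the highest to the lowest of Control, ACE+ACE and ASP+ACE ran from 1.04 for the lower Gli3 row to 1.90 for Gdf5, with a median of 1.26. Over 74 other transcripts that rose in IBU+ACE in all 3 of its tables and had values above 0 throughout, the same ratio ran from 1.03 to 3.36 with a median of 1.31. The ratio of IBU+ACE to the highest other library ran from 1.59 for Gas1 to 30.2 for Gdf5 among these 7 rows. It was above the first ratio in each row, but nothing is read from this. Each of these rows was listed as higher in IBU+ACE in all 3 of its tables and in no table between the other libraries. A wider gap to IBU+ACE thus came with the choice of rows. Gas1, Gdf10 and Dkk2 shared a pattern, with log2 ratios of ACE+ACE over Control of -0.33, -0.49 and -0.45, computed from the deposited values. Those of ASP+ACE over Control were -0.31, -0.47 and -0.43. A higher Control was not particular to them: it was the highest of these 3 libraries in 4 of the 7 rows and in 45 of the 74 other transcripts. Over those 74 the median log2 ratios to Control were -0.18 for ACE+ACE and -0.13 for ASP+ACE. Liver markers also differed between these libraries, 5 of them summing to 209 FPKM with Control, 131 with ASP+ACE, 58.3 with ACE+ACE and 220 with IBU+ACE, and their part in the pattern was not tested. For Bmp2 and Bmpr1b the ratios of ACE+ACE over Control were -0.062 and 0.083. ACE+ACE and ASP+ACE differed by a log2 ratio of 0.029 or less for Gas1, Gdf10 and Dkk2, and by -0.92 (ASP+ACE lower) for Gdf5.

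**Figure D3:**
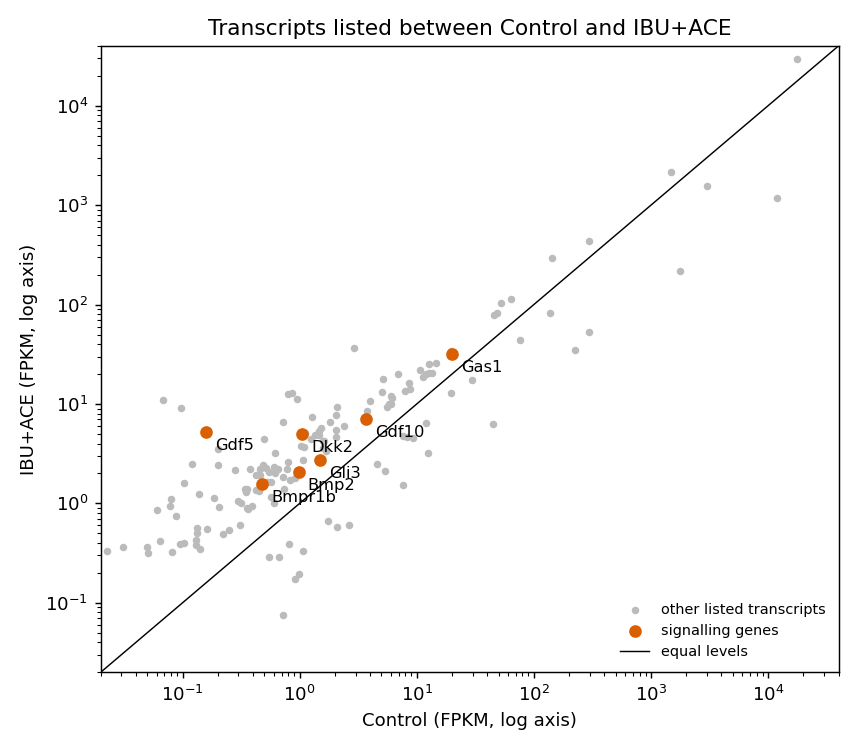
Level in IBU+ACE against level in Control (FPKM, both axes log) for transcripts listed between these libraries with values above 0 in both; orange points are the signalling genes and the line marks equal levels. The 7 orange points lie above the line, Gdf5 (0.159 and 5.25 FPKM) farthest from it and Gas1 (20.03 and 31.9 FPKM) nearest.

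Other genes of the 3 pathways were read from 10 lists with 192 genes, 184 without the members. Of these 184, 6 rose and 1 fell in IBU+ACE against Control, 6 rose and 2 fell against ACE+ACE, and 7 rose and 1 fell against ASP+ACE. As a share of the list the rises came to 3.26%, 3.26% and 3.80%, where 0.379%, 0.575% and 0.465% of 21924 annotated protein-coding genes, tested or not, were listed as higher. The falls came to 0.543%, 1.09% and 0.543%, where 0.0593%, 0.0456% and 0.0182% of those protein-coding genes were listed as lower. Every fall was of Lefty1 or Lefty2, Nodal antagonists that the list of BMP and GDF ligands also holds. The median log2 fold changes of the listed genes were 1.89, 1.84 and 1.83, beside 1.40, 1.70 and 1.75 over all listed rows with a finite value. The lists were written with earlier results of these data known, so they are no independent evidence of a direction. None of the 192 genes was in the 3 tables without IBU+ACE.

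In the BMP lists the antagonist Nog (noggin), which binds BMP ligands and limits their action in forming joints, rose from 0.519 FPKM (Control), 0.598 (ASP+ACE) and 0.619 (ACE+ACE) to 2.29 FPKM. It was the only 1 of 17 antagonist genes listed and rose over Control by 2.14 on the log2 scale of the authors' deposited table. Msx1, a homeobox gene induced by BMP signals, went from 0.788, 0.659 and 0.676 FPKM in the other libraries to 12.7 FPKM. Msx2 read 2.31 FPKM for IBU+ACE, 0.603 for Control and 0.868 for ASP+ACE, with no readable ACE+ACE value. The listed BMP antagonist and the listed BMP targets had their highest readable level in the library in which Gdf5, Bmp2, Gdf10 and Bmpr1b had theirs. This comes with being listed as higher in IBU+ACE, so nothing is read from it. Msx1 and Msx2 were the only listed genes of the 21 BMP effectors and targets, and both also belong to the limb and genital tubercle list. The Id genes and Smad6 and Smad7, which BMP signals also induce, were in no table. The members of the ligand list that fell were the Nodal antagonists Lefty1, from 9.37 FPKM in Control to 4.53 in IBU+ACE, and Lefty2, from 11.7 FPKM in ACE+ACE to 7.37 in IBU+ACE.

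Of the 29 hedgehog genes, Ihh and Osr1 were listed beside Gas1 and Gli3. Ihh, the hedgehog ligand of growth cartilage, read 0.924 FPKM for IBU+ACE, 0.266 for ACE+ACE and 0.238 for ASP+ACE and could not be read for Control. Osr1, a transcription factor of intermediate and limb mesoderm, had 1.45, 1.32 and 1.49 FPKM in Control, ACE+ACE and ASP+ACE and 4.89 FPKM in IBU+ACE. The testis ligand Dhh was in no table, and neither were the receptor Ptch1 and the target Gli1, which are usual readouts of the pathway.

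Of the 75 Wnt genes, the secreted antagonists were the largest group, with 3 of 16 listed in each IBU+ACE table. Of all annotated protein-coding genes, 0.379%, 0.575% and 0.465% were listed as higher against Control, ACE+ACE and ASP+ACE. The list was written with earlier results known, and Dkk2 was picked from these tables. Besides Dkk2 the listed antagonists were Sfrp2 and Wif1. Sfrp2, a secreted Frizzled-related protein, had 12.7, 12.4 and 13.3 FPKM in Control, ACE+ACE and ASP+ACE and 25.5 FPKM in IBU+ACE. Wif1, which binds Wnt ligands directly, had 1.02, 0.850 and 0.812 FPKM in the same order and 3.79 FPKM in IBU+ACE. Their log2 fold changes over Control in the authors' deposited table were 1.01 for Sfrp2 and 1.89 for Wif1. No gene of the 22 Wnt receptors and coreceptors or of the 18 Wnt effectors and targets, which include Axin2 and Lef1, was in any table.

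**Figure D4:**
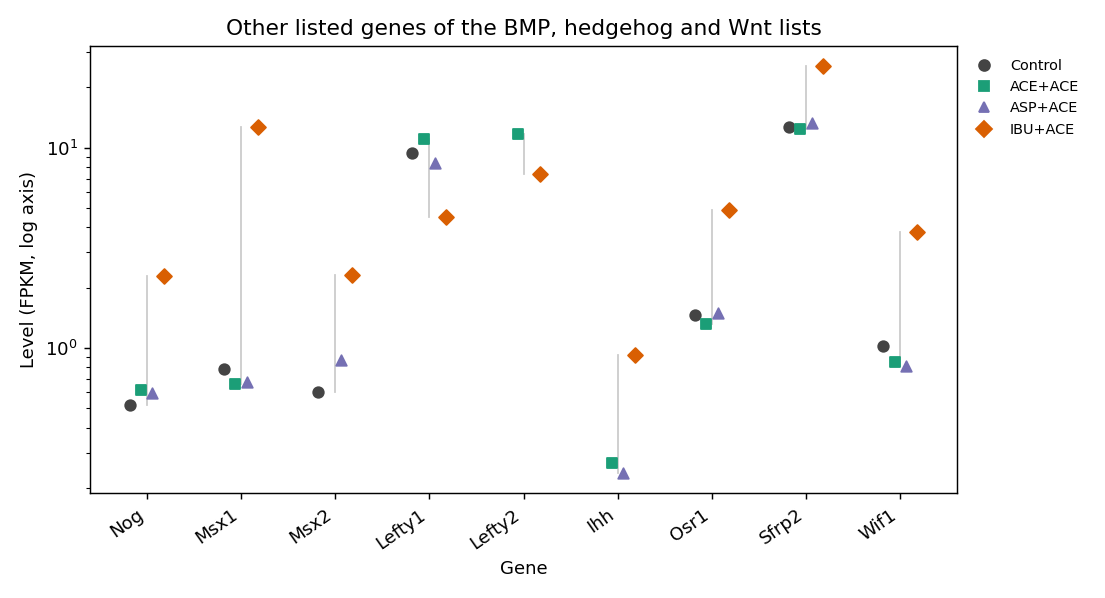
Level in FPKM (log axis) of the listed transcripts of other genes of the BMP, hedgehog and Wnt lists in the 4 libraries. There is 1 point per readable library value, and a grey line runs from lowest to highest. IBU+ACE is the highest point for Nog, Msx1, Msx2, Ihh, Osr1, Sfrp2 and Wif1 and the lowest for Lefty1 and Lefty2.

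Genes with the most similar profile were sought among 93 named genes with values in all 4 libraries, as the smallest root-mean-square distance of log2(FPKM + 0.1) values centred on their mean. Bmp2 was nearest to the fibrillar collagen gene Col11a1 (distance 0.033), Bmpr1b to Lrig3 (0.060), Gas1 to the transcription factor gene Sox11 (0.075) and Gdf10 to Ube2ql1 (0.12). Dkk2 was nearest to Gm20471 (0.12), and Gdf5 to Msx1 (0.29), followed by Cxcl14 and the cartilage collagen gene Col2a1. These distances are descriptions over 4 libraries. They depend on the constant added: with 1 FPKM, 3 of the 27 pairs of a row and one of its 3 nearest genes were shared.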

How the data were processed

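RNA from E13.5 gonads was sequenced as stranded, rRNA-depleted libraries with paired 75 nt reads, per the labels' protocols. The submitters' processing notes name Bowtie2 2.2.6, TopHat2 2.1, Cufflinks 2.2.1 and GRCm38, without settings. The authors deposited 6 tables, 1 per pair of libraries, that hold called rows only (726 in all). Their values are taken as FPKM from the layout, which the file headers do not name as such; the deposited log2 fold change equalled the log2 of the 2 values within 1.09e-05, and p-values and q-values are constant. Depth is unknown, so no interval is given.

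Decimal commas were turned into points and 1 was added to each locus start. Python 3.11.15 was used with the libraries pandas 2.3.3, numpy 2.4.6 and, for plots, matplotlib 3.10.9. EtOH was matched to Control as the remaining library in tables titled Control; 0 columns were left unmatched. Values of a library repeated between tables disagreed 0 times. Reading was tested on 200 simulated rows, with 120 higher and 80 lower recovered. No test was run, since each group has 1 library. Loci were compared with GENCODE M21. The genes and the 19 gene lists were chosen with earlier results of these data known. The rule for named genes took the 8 genes, the genes of the 10 pathway lists in any table and the 3 nearest profiles per row, of which the text prints some. Marker genes, Xist, neighbouring genes and list genes said to be in no table fall outside it and were named after their values or absence were seen. Alternatives were other thresholds, added constants and centring.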

Additional observations from a re-analysis of the deposited data

How the results depend on the processing

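No alternative changed the direction of a member except centring. Adding 0.1 or 1 FPKM left all 24 log2 fold changes of the members above 0, between 0.67 and 4.80 with 0.1 FPKM and between 0.57 and 2.52 with 1 FPKM. A q of 0.01 or less left 0 members in each of the 3 IBU+ACE tables, by construction, since every row has the same q. Asking for a log2 fold change of 1 or more in size left 4 of the 7 genes against Control; after adding 1 FPKM, 2 of 7 against Control, 4 of 7 against ACE+ACE and 4 of 8 against ASP+ACE passed it, and after adding 0.1 FPKM 4 of 7 against Control. A minimum of 1 FPKM kept every member count. Centring on the median of all listed rows, most of them higher in IBU+ACE, turned 16 of the 24 values below 0 by its construction, since that median is taken over called rows alone. Against Control, ACE+ACE and ASP+ACE, these were -0.31, -0.54 and -0.53 for Bmp2, -0.47, -0.27 and -0.34 for Gdf10, -0.73, -0.70 and -0.77 for Gas1, and -0.50, -0.86 and -0.85 for the lower Gli3 row. Against ACE+ACE and ASP+ACE they were -0.52 and -0.50 for the higher Gli3 row and -0.063 and -0.0014 for Bmpr1b. No paired analysis was possible because each group has 1 library. Unknown depth limits most the low levels of Gdf5 and Wnt7b.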

Other observations

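The lower of the 2 Gli3 rows carries a gene identifier that sits apart from the other. On chromosome 13 the identifiers of 8 rows named for plus-strand genes, the higher Gli3 row among them, ran from 13118 to 13822 in order of position, and those of 8 rows named for minus-strand genes, Gas1 among them, started again at 14022 and ran to 14537 in order of position. The lower Gli3 row has 13960, above every plus-strand identifier and below every minus-strand one, and its locus begins before that of each minus-strand row, so its place follows the order of the minus-strand rows. Over 20 chromosomes with named rows on both strands, plus-strand identifiers were all below the minus-strand ones in 15. The strand of the row is not given in the tables, and whether its reads come from Gli3 or from the minus-strand genes Gm6556 and Gm26645 was not tested.

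The signalling genes were scattered over 5 chromosomes. The nearest row of another gene listed in any table was 757080 bases away for Bmp2 (Chgb, which was highest in Control at 0.719 FPKM and lowest in IBU+ACE at 0.0759 FPKM) and 881259 bases away for Gdf5 (an unnamed transcript that read 1.02 FPKM for Control, 0.403 for ASP+ACE and 0.975 for IBU+ACE). For the other 6 genes it was at least 3875354 bases away.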
